A study of Danio rerio with 16 samples.

Results

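Neuromesodermal progenitors (NMP cells) are cells of the embryonic tailbud from which both spinal cord and paraxial mesoderm are built while the body lengthens. Their usual molecular definition is the joint presence of the neural factor Sox2 and the mesodermal T-box factor Brachyury (tbxta in zebrafish). Wnt and FGF signals hold them in the progenitor state, and a cell that turns to the neural path loses tbxta and carries on with genes of the SoxB1 family, while a cell that turns to mesoderm takes up tbx16 and msgn1. The comparison described here sets posterior neuronal cells, the class at the start of the spinal cord, against NMP cells of the same wild-type (WT) tails, so as to list the genes that are gained and those that are lost between them. Both classes were sampled at the same stage, and no cell was followed from NMP to neural fate.

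The cells came from untreated WT zebrafish embryos at the 10 to 12 somite stage. Each of the 4 libraries was made from a pool of 10 tails cut off behind the last somite, dissociated with papain and captured in 10x Genomics droplets, where 3′ ends are read and each transcript carries a unique molecular identifier (UMI). The 12 libraries of the other groups came from embryos in which signalling was inhibited, with DMH1 (a small molecule against BMP receptors), with SU5402 (a small molecule against FGF receptors) or through notum-1 (Notum inactivates secreted Wnt proteins, and its tails were pooled by 12), and they enter only the last comparison. Cells were taken by the class name that the authors had given them and by the treatment name WT. That gave 3478 posterior neuronal cells and 2790 NMP cells, which are 6268 of the 34632 WT cells and of the 130661 cells in all. By library (named DJ1, DJ2, MG1 and MG2 in the files, the order of all values below), there were 750, 1186, 706 and 836 posterior neuronal cells against 711, 862, 666 and 551 NMP cells. Summed over the cells of a class, a library held 2918795 to 4994824 UMIs in posterior neuronal cells and 2059783 to 4225675 in NMP cells. Depth per cell was lower in posterior neuronal cells in each library, with medians of 3645.5, 3976, 5464.5 and 3225 UMIs per cell against 3909, 4300.5, 5940 and 3524 in NMP cells. Any pair of WT libraries shared 13 to 29 cell barcodes.

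Levels are given in counts per 1000000 (CPM), that is, UMIs of a gene scaled to that sum over the UMIs of a class in a library, either for each library or as a mean ± SD over the 4 libraries. Because the 3′ protocol captures genes unequally, levels are compared between classes and not between genes. A gene was called when the edgeR quasi-likelihood F test, with the library as a block, gave a Benjamini-Hochberg adjusted p under 0.05 over all 8939 genes tested. Fold changes are on the log2 scale of that fit, posterior neuronal over NMP, with the standard error (SE). Per the file headers the cells were clustered on a neighbour graph of their expression, though how the class names were given is not stated in the sources used here. Genes that served to separate the classes were bound to differ, so the test does not show that the classes differ. Its median SE was 1.03 times that of UMI counting alone, so an adjusted p mostly measures counting error. How well a difference repeats over the 4 libraries is read from the library values or their SD. The labels call the libraries biological replicates, each from a pool of its own.

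The name of the NMP class was set beside its defining pair of genes in the same cells, after each cell had been thinned to 2000 UMIs so that depth was equal. A UMI of tbxta was found in 20.8% ± 2.35 of posterior neuronal cells and 71.2% ± 2.52 of NMP cells (SD, n = 4 libraries), against 9.15% of epidermis 1 cells, a class that should lack the gene and in which a UMI can come from free RNA in the droplets. A UMI of sox2 was found in 20.7% ± 1.09 of posterior neuronal cells and 20.1% ± 1.49 of NMP cells, against 2.87% of epidermis 1 cells. UMIs of tbxta and sox2 met in 5.27% ± 2.07 of posterior neuronal cells and 16.9% ± 0.90 of NMP cells, while in epidermis 1 cells they met in 0.335%. The NMP class thus held the joint signal in each library, at 16.1% to 18.1% of cells, and posterior neuronal cells held it at 4.04% to 8.36%. As the sox2 share was alike in both classes, this difference goes with that of tbxta. The share that independent detection of the genes would give was not set beside it. Both defining genes were above the epidermal level in both classes. Cells left out by the thinning numbered 29 in posterior neuronal cells, 9 in NMP cells and 104 in epidermis 1 cells, and medians before it were 3968 and 4379 UMIs per cell in posterior neuronal and NMP cells.

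**Figure D1:**
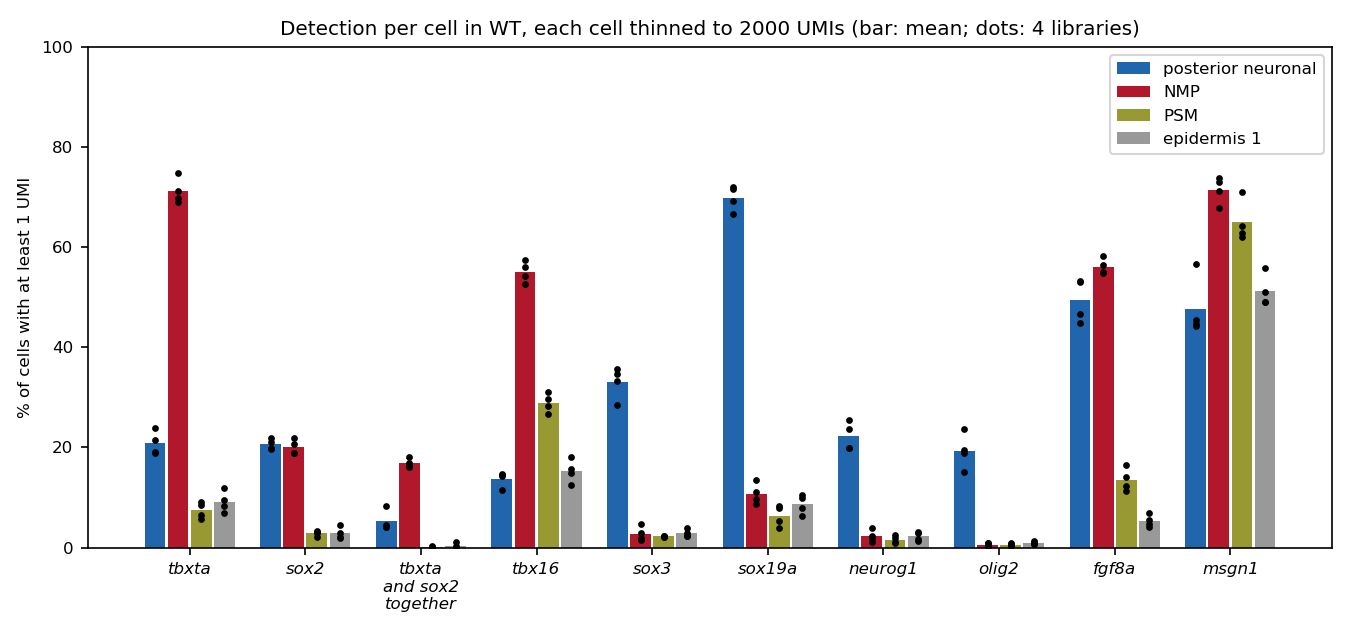
Percent of WT cells with at least 1 UMI of a gene, each cell thinned to 2000 UMIs, in posterior neuronal, NMP, PSM and epidermis 1 cells; bars are means of 4 libraries and dots the libraries. Bars of sox2 are alike in posterior neuronal (20.7%) and NMP cells (20.1%), tbxta and tbx16 stand higher in NMP cells, and sox3, sox19a, neurog1 and olig2 in posterior neuronal cells.

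The other genes used to recognise an NMP did not all follow tbxta. Of the marker list, wnt8a and cyp26a1 were lower in posterior neuronal cells, fgf8a and cdx4 were nearly level, sp5l was higher in posterior neuronal cells by a log2 fold change of 0.44 (SE 0.04), and nkx1.2la was higher by a log2 fold change of 3.32 (SE 0.080). The homeobox gene nkx1.2la, whose mouse and chick relatives mark the region of NMPs and preneural cells, had 165, 161, 177 and 169 CPM in posterior neuronal cells against 13.6, 15.6, 19.9 and 17.0 in NMP cells. No NMP library reached the lowest posterior neuronal library, and the NMP mean of 16.5 ± 2.65 lay under the epidermis 1 mean of 34.0. The second copy, nkx1.2lb, had 5 UMIs in posterior neuronal cells and 0 in NMP cells over the 4 libraries. In the posterior neuronal class, sox3, sox19a, pax6a, pax6b, nkx6.1, irx3a, zic2b, dla and neurog1 of its 10 markers were higher than in NMP cells, and cdh2 fell by 0.42 on the log2 scale.

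Across all genes, 2280 of 8939 were called (25.5%), 1285 of them higher in posterior neuronal cells (14.4%) and 995 lower (11.1%). Calls with a log2 fold change of at least 1 were 522 higher (5.84%) and 212 lower (2.37%), 734 in all (8.21%), so that more genes were gained than lost at that size. These shares, 14.4% and 11.1%, are what the counts of each list below stand beside. A gene could pass the filter on low counts through the class where it was high alone. That favours calls and large folds among the genes tested. Whether it does so to the same degree in the lists as over all genes was not tested. Over all genes the median log2 fold change was -0.01, and the library ranges of the 2 classes did not overlap in 1611 genes. Without the library block 1396 genes were called, and DESeq2 called 1094, each of which was also in the main set. The median SE of edgeR was 1.03 times that of UMI counting alone, and that of DESeq2 was 1.73 times that of edgeR. The counts therefore depend on how the spread between libraries is estimated. At the threshold of size, the members just inside were col18a1a, higher by 1.002, and anxa11a at -1.001, and those just outside were CABZ01086293.1 at 1.000 and prkcbb at -0.998.

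**Figure D2:**
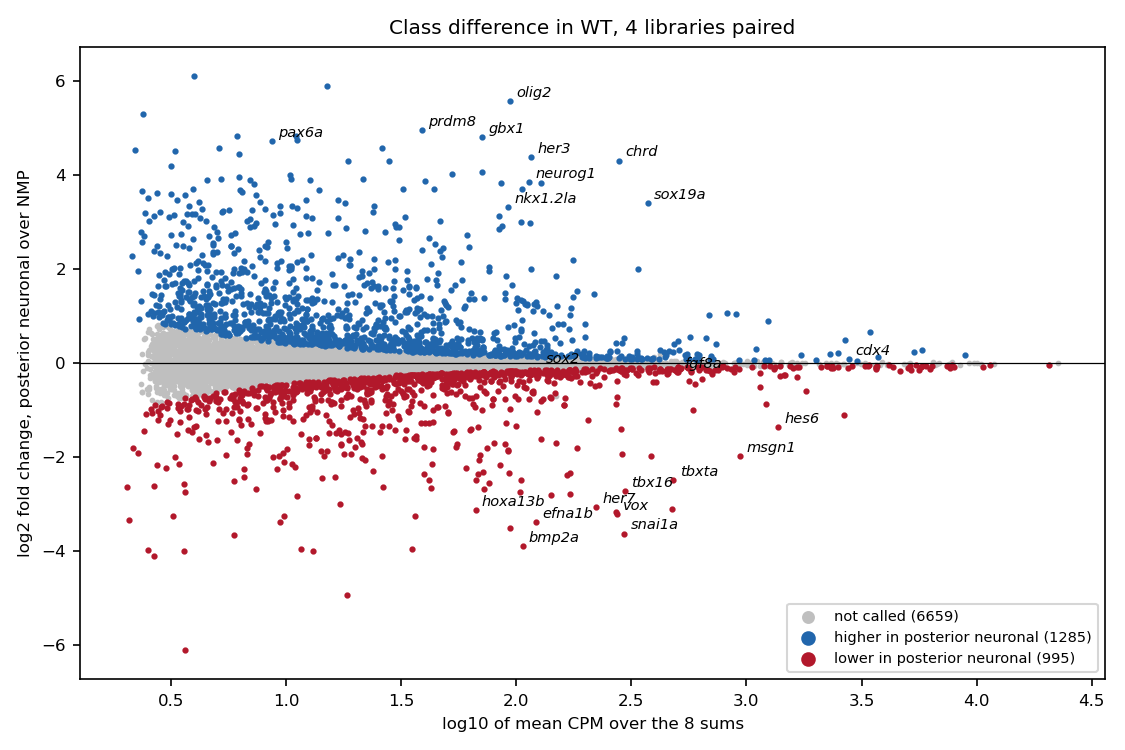
Log2 fold change, posterior neuronal over NMP, of the 8939 genes tested in WT against the log10 of their mean CPM over the 8 sums; blue genes were called higher (1285), red ones lower (995) and grey ones not called. Neural genes such as olig2 (5.59) and sox19a (3.41) lie at the top and snai1a (-3.62) and tbxta (-2.48) at the bottom, while sox2, fgf8a and cdx4 lie near 0.

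Mesodermal progenitor genes were lower in part. Of 23 T-box and mesodermal progenitor genes tested, 11 were lower and 3 higher in posterior neuronal cells, against 11.1% lower and 14.4% higher among all genes, and the median log2 fold change of the list was -0.33. The lower ones include eve1, ved, vent and vox of the ventral tailbud, the mesp and ripply genes and meox1 were not called, and tcf15, noto and tbx6 were higher. The Brachyury gene tbxta had 138, 148, 158 and 145 CPM in posterior neuronal cells against 755, 907, 729.6 and 872 in NMP cells. The ranges were far apart in all libraries, and the log2 fold change was -2.48 (SE 0.035). What remained in posterior neuronal cells was above the mean of 47.1 in epidermis 1 cells. A sum over a class does not tell fewer expressing cells from less RNA per cell. The lower share of cells with tbxta, above, does not tell them apart either. In thinned cells such a share falls in both cases. Its paralogue tbxtb was near the floor, with 1 UMI in posterior neuronal cells and 28 in NMP cells over the 4 libraries, and was not tested.

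The T-box gene tbx16, which drives cells into paraxial mesoderm, had 89.8, 78.3, 81.8 and 62.7 CPM in posterior neuronal cells against 554, 521, 461 and 519 in NMP cells. All posterior neuronal values were below all NMP values, with a log2 fold change of -2.72 (SE 0.043). They were also at the level of epidermis 1 cells (91.6), so that low expression of tbx16 in posterior neuronal cells was not told from free RNA. Its relative tbx16l behaved alike, at 31.7 ± 5.91 in posterior neuronal cells and 177 ± 5.26 in NMP cells, and again the posterior neuronal mean was near the epidermal 33.2. The bHLH gene msgn1, a switch for presomitic fate, had 379, 387, 459 and 315 in posterior neuronal cells against 1498, 1829, 1484 and 1172 in NMP cells, a log2 fold change of -1.98 (SE 0.11, adjusted p = 0.00253 by edgeR). The ranges did not overlap, and the posterior neuronal mean of 385 lay beside the epidermal mean of 424. In contrast tbx6, which acts later in the presomitic mesoderm, was at 73.6 ± 12.5 in posterior neuronal cells and 64.3 ± 11.3 in NMP cells. Both were below the epidermal 86.7, so low expression of tbx6 was not told from free RNA in either class. Its call (log2 fold change 0.19, edgeR adjusted p = 0.03) was lost in 7 of the alternatives.

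**Figure D3:**
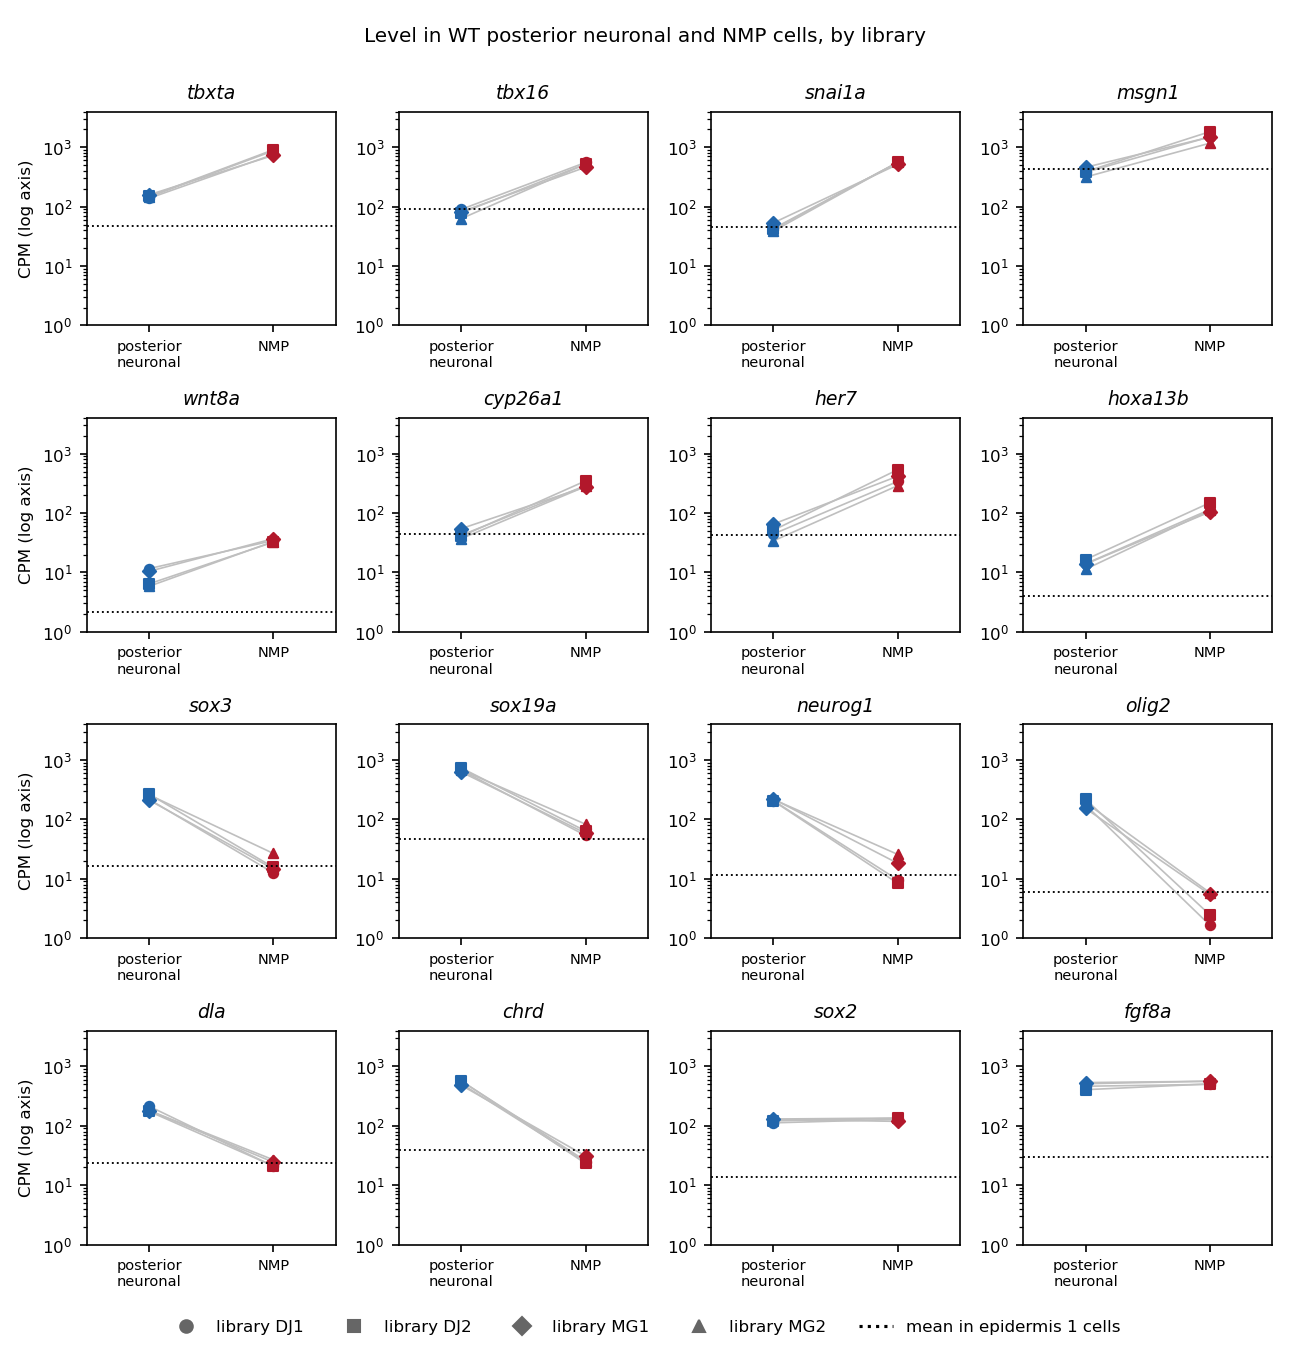
CPM (log axis) of 16 genes in posterior neuronal (left of each panel) and NMP cells (right) of the 4 WT libraries, joined by library, with the mean in epidermis 1 cells dotted. Lines of 14 genes slope the same way in all 4 libraries with no overlap of the classes. Those of sox2 and fgf8a are almost flat. The 16 genes were chosen with earlier results known, and among all 8939 genes tested 1611 showed no overlap.

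The zinc-finger gene snai1a, a Snail factor known for repressing epithelial genes in cells that become mesenchymal, showed a larger fold than tbxta. It had 41.5, 42.6, 53.3 and 38.7 CPM in posterior neuronal cells against 557, 554, 514 and 556 in NMP cells. The values within a class were close, the log2 fold change was -3.62 (SE 0.048), and the posterior neuronal mean of 44.0 was that of epidermis 1 cells (44.8). Among adhesion genes, fn1b, a fibronectin of the mesodermal matrix, fell to 125 ± 9.99 in posterior neuronal cells, against 284 ± 14.7 in NMP cells, and the protocadherin pcdh8, known in the paraxial mesoderm, to 57.2 ± 3.36 in posterior neuronal cells against 143 ± 9.44 in NMP cells. N-cadherin, cdh2, was only a little lower, at 179.8 ± 12.5 in posterior neuronal cells and 238 ± 23.3 in NMP cells (log2 fold change -0.42, SE 0.043). E-cadherin, cdh1, was at 15.5 ± 2.70 in posterior neuronal cells and 21.4 ± 4.00 in NMP cells, both far below the 232 of epidermis 1 cells, and its call (edgeR adjusted p = 0.00118) was lost with DESeq2.

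Other adhesion genes were higher in posterior neuronal cells. The type II cadherin cdh11 had 142, 144, 150.3 and 175 CPM in posterior neuronal cells against 21.8, 18.04, 17.3 and 23.8 in NMP cells, a log2 fold change of 2.93 (SE 0.079). No library came near to overlap. Another type II cadherin, cdh6, rose less, to 81.5 ± 1.82 in posterior neuronal cells, against 50.04 ± 6.66 in NMP cells, and cldn5a, a claudin of the neural tube, was at 122 ± 11.5 in posterior neuronal cells against 31.1 ± 6.34 in NMP cells. The chemokine scavenger receptor ackr3b was also higher, by 2.27 (SE 0.10), though its posterior neuronal mean of 79.4 was near the 77.9 of epidermis 1 cells. Over the whole list of cadherin and matrix genes, 10 of 37 tested were higher and 9 lower, with a median of -0.02. Among Eph and ephrin genes, the ligand efna1b fell to 21.2 ± 4.47 in posterior neuronal cells, against 223 ± 16.9 in NMP cells, and the receptor ephb4b to 16.0 ± 3.52 in posterior neuronal cells against 70.28 ± 11.7 in NMP cells. The receptor epha2a was at 69.3 ± 7.46 in posterior neuronal cells and 21.7 ± 1.92 in NMP cells, and the ligand efnb2b was higher by a log2 fold change of 1.67 (SE 0.15). In the Eph and ephrin list 4 of 10 tested genes were higher, 2 lower and 4 not called.

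The SoxB1 genes, transcription factors that keep cells neural and undifferentiated, divided into sox2 and the rest. The level of sox2 was 112, 121, 128 and 129.8 CPM in posterior neuronal cells against 128, 133, 119 and 135 in NMP cells. These ranges overlapped, and the log2 fold change of -0.08 (SE 0.053) was not called (edgeR adjusted p = 0.306). Both classes were far above the epidermal 13.9. By contrast sox3 had 218, 267, 212 and 259 in posterior neuronal cells against 12.6, 15.6, 14.7 and 26.7 in NMP cells. All posterior neuronal libraries were higher by a wide margin, with a log2 fold change of 3.84 (SE 0.074). The NMP mean of 17.4 ± 6.34 was that of epidermis 1 cells (16.6), so low expression of sox3 in NMP cells was not told from free RNA.

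Its relative sox19a, a SoxB1 gene of fishes expressed in the early neural plate, had 674, 737, 629.6 and 682 CPM in posterior neuronal cells against 53.6, 63.8, 58.7 and 83.0 in NMP cells. The classes did not overlap, and the log2 fold change was 3.41 (SE 0.043). A UMI of sox19a was found in 69.9% of posterior neuronal cells and 10.8% of NMP cells after thinning, against 8.62% of epidermis 1 cells. For sox19b the levels were 161 ± 25.9 in posterior neuronal cells and 11.3 ± 4.73 in NMP cells, and for sox1b 21.4 ± 4.77 in posterior neuronal cells and 0.626 ± 0.273 in NMP cells. Of the 10 Sox genes tested, 7 were higher and 2 lower in posterior neuronal cells, with a median log2 fold change of 2.42 beside -0.01 for all genes. The SoxC gene sox11a, found in cells that begin to differentiate, was higher by a log2 fold change of 1.42 (SE 0.049), whereas its relative sox11b was lower, with a log2 fold change of -0.40 that was not called without the library block. Among the SoxB1 genes tested, sox1a, sox1b, sox3, sox19a and sox19b were thus called higher, and sox2 was not called.

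**Figure D4:**
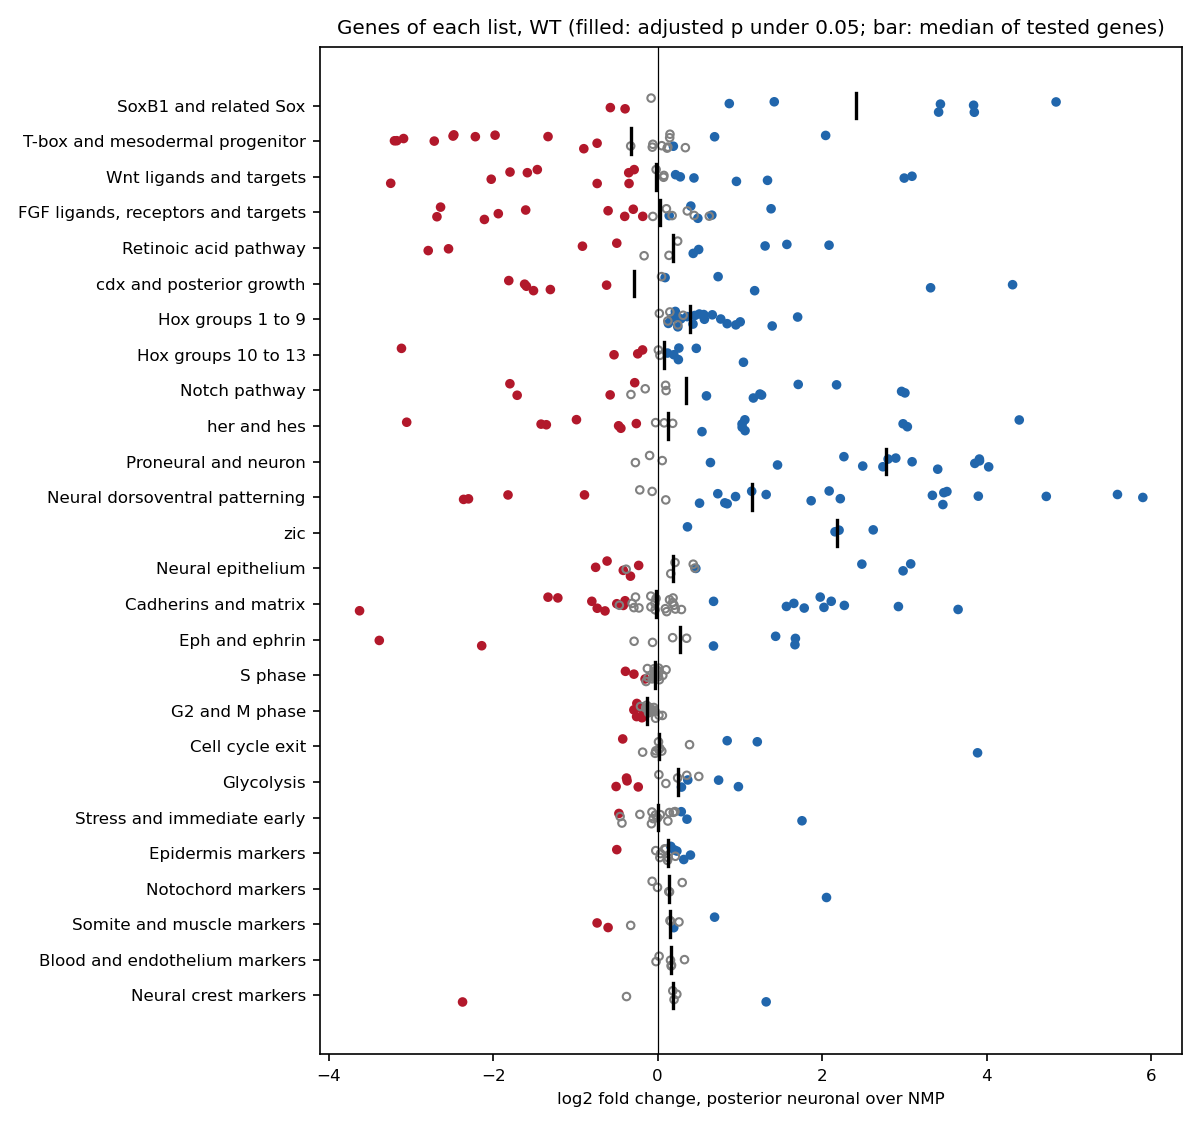
Log2 fold changes, posterior neuronal over NMP, of the tested genes of 26 gene lists in WT; filled points were called at an adjusted p under 0.05, open ones were not, and the black bar is the median of a list. The proneural and Sox lists have medians of 2.77 and 2.42, and the Hox 1 to 9 list lies wholly above 0. The S phase list and the G2 and M phase list stay close to 0.

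Proneural genes and genes of early neurons were higher in posterior neuronal cells in 13 of 16 tested members, and none was lower, with a median log2 fold change of 2.77. The list had 33 genes in the matrix, and the rest had too few UMIs to be tested. The bHLH gene neurog1, which commits cells to become neurons, had 207, 204, 221 and 217 CPM in posterior neuronal cells against 9.60, 8.40, 18.2 and 25.7 in NMP cells. The posterior neuronal libraries were close to each other and all higher (log2 fold change 3.85, SE 0.10, adjusted p = 7.25e-31 by edgeR). Its transcript was found in 22.3% of posterior neuronal cells and 2.28% of NMP cells, the second of which is the 2.23% of epidermis 1 cells. The neuronal RNA-binding protein gene elavl3 was at 54.8 ± 7.93 in posterior neuronal cells and 7.25 ± 3.94 in NMP cells, and was found in 7.15% of posterior neuronal cells and 1.79% of NMP cells. Further along the path neurod4 was at 13.01 ± 0.439 in posterior neuronal cells against 0.976 ± 0.688 in NMP cells, and olig4, a bHLH gene of the neural tube, at 99.5 ± 3.39 in posterior neuronal cells against 6.18 ± 1.13 in NMP cells. The list also held pou5f3, the zebrafish relative of mammalian Oct4, which had 105, 98.5, 99.0 and 120.3 in posterior neuronal cells against 15.23, 15.08, 12.5 and 21.4 in NMP cells (log2 fold change 2.74, SE 0.091). It, too, showed no overlap between classes.

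Delta ligands were divided along the same line. The ligand dla, used in lateral inhibition among neural cells, had 214, 175, 181 and 181 CPM in posterior neuronal cells against 20.9, 21.0, 24.4 and 26.7 in NMP cells. Its lowest posterior neuronal value was far above its highest NMP value (log2 fold change 3.00, SE 0.072), and the NMP mean of 23.2 ± 2.82 was the epidermal one (23.3). The ligand dlb followed, at 52.7 ± 4.36 in posterior neuronal cells and 6.93 ± 3.18 in NMP cells. The opposite was seen for dlc and dld, which serve the segmentation clock of the presomitic mesoderm: dlc was at 33.7 ± 2.41 in posterior neuronal cells and 116 ± 4.68 in NMP cells, and dld at 41.9 ± 4.81 in posterior neuronal cells and 137 ± 13.6 in NMP cells. Their log2 fold changes were -1.80 (SE 0.073) and -1.71 (SE 0.066). The receptor notch3 rose to 157 ± 13.4 in posterior neuronal cells, against 66.4 ± 2.66 in NMP cells, and lfng, a glycosyltransferase that modifies Notch, to 169 ± 21.6 in posterior neuronal cells against 70.5 ± 13.3 in NMP cells. Of 16 Notch pathway genes tested, 8 were higher and 4 lower, beside 14.4% and 11.1% of all genes, with a median of 0.35.

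Genes of the Hairy/Enhancer-of-split family, some of them targets or partners of Notch, differed in both directions. The clock gene her7 had 44.2, 51.3, 65.1 and 33.9 CPM in posterior neuronal cells against 340.3, 537, 416 and 289 in NMP cells. The highest posterior neuronal library stayed far under the lowest NMP library (log2 fold change -3.05, SE 0.052), near the 41.8 of epidermis 1 cells. The second clock gene her1 was at 15.9 ± 3.87 in posterior neuronal cells and 43.4 ± 3.44 in NMP cells, and their partner hes6 at 783 ± 73.6 in posterior neuronal cells and 1974 ± 118 in NMP cells (log2 fold change -1.35, SE 0.042, adjusted p = 5.98e-12 by edgeR). For the clock-linked her12 the log2 fold change was only -0.45 (SE 0.029). The gene her3, which holds neural progenitor pools free of neurons, had 215, 273, 199 and 198 in posterior neuronal cells against 8.61, 10.9, 12.1 and 9.71 in NMP cells, and her9, which acts likewise, was at 203 ± 27.2 in posterior neuronal cells against 25.7 ± 4.46 in NMP cells. Neither gene overlapped between classes, and their log2 fold changes were 4.39 (SE 0.082) and 2.98 (SE 0.069). Of the her4 genes, Notch targets in neural progenitors, her4.1 was higher by a log2 fold change of 0.54 (SE 0.028). Reads can be split among the 5 near-identical her4 copies, and their sum was 4283 ± 279 in posterior neuronal cells and 2216 ± 267 in NMP cells. Other members that are high in anterior neuronal cells were lower: her2 was at 397 ± 69.9 in posterior neuronal cells and 775 ± 118 in NMP cells (848 in anterior neuronal cells), with a log2 fold change of -0.99, and her15.1 had one of -0.26. The family member hey2 was lower too, at -0.47. In the her and hes list 8 of 18 tested genes were higher and 7 lower, with a median of 0.13. The 5 her4 copies are among the 8 and are counted singly, so the balance and the median lean on them.

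Among genes that pattern the neural tube from back to belly, 18 of 25 tested were higher and 4 lower, with a median log2 fold change of 1.14. That list had 40 genes in the matrix, and the rest had too few UMIs to be tested. The motor neuron progenitor gene olig2 had 175, 217, 153 and 193 CPM in posterior neuronal cells against 1.66, 2.47, 5.44 and 5.83 in NMP cells. This log2 fold change of 5.59 (SE 0.11) rests on an NMP mean below the epidermal mean of 6.07, where low expression was not told from free RNA. It was found in 19.4% of posterior neuronal cells after thinning, and in 0.605% of NMP cells. Other ventral genes were higher as well, with nkx6.1 at 43.7 ± 5.25 in posterior neuronal cells and 4.29 ± 0.692 in NMP cells and nkx2.9 at 29.6 ± 6.23 in posterior neuronal cells and 0.527 ± 0.407 in NMP cells. The neural patterning genes pax6a and pax6b were at 16.7 ± 4.13 and 24.1 ± 4.41 in posterior neuronal cells, and at 0.674 ± 0.371 and 1.48 ± 0.415 in NMP cells. In the dorsal part, olig3 was at 50.2 ± 13.5 in posterior neuronal cells and 2.03 ± 0.538 in NMP cells, and pax3a at 41.3 ± 5.74 in posterior neuronal cells and 16.7 ± 2.55 in NMP cells. The Iroquois gene irx3a, at 12.9 ± 1.92 in posterior neuronal cells and 6.49 ± 0.547 in NMP cells, lay under the 15.8 of epidermis 1 cells in both. The zinc-finger gene zic2b, of the dorsal neural tube, had 264, 290.5, 290.0 and 315 in posterior neuronal cells against 49.3, 61.5, 62.9 and 77.7 in NMP cells (log2 fold change 2.204, SE 0.052), and its classes did not overlap.

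The 4 lower genes of that list were msx genes, known targets of BMP, such as msx3 at 22.4 ± 1.59 in posterior neuronal cells and 114 ± 10.96 in NMP cells, and msx1a at 19.7 ± 2.40 in posterior neuronal cells and 67.6 ± 4.03 in NMP cells. They fell together with several BMP genes. The ligand bmp2a had 13.3, 12.0, 17.7 and 10.6 CPM in posterior neuronal cells against 203, 185, 212 and 199.5 in NMP cells. There was no overlap, and the log2 fold change was -3.89 (SE 0.079). The BMP pseudoreceptor gene bambia was at 14.9 ± 5.38 in posterior neuronal cells and 174 ± 24.4 in NMP cells, although epidermis 1 cells had 369.5. The homeobox genes vox, vent and ved, which act under BMP to repress dorsal genes such as chrd, were at 54.5 ± 8.67, 54.3 ± 5.71 and 101 ± 17.6 in posterior neuronal cells, against 493 ± 76.2, 487 ± 52.6 and 850.2 ± 153 in NMP cells. Their log2 fold changes were -3.20 (SE 0.047), -3.17 (SE 0.048) and -3.09 (SE 0.15, adjusted p = 0.00148 by edgeR). In epidermis 1 cells vox, vent and ved had means of 243, 141 and 295 CPM.

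The BMP antagonist gene chrd ran the other way, with 512, 574, 482 and 566 CPM in posterior neuronal cells against 24.5, 23.2, 31.0 and 25.7 in NMP cells. The NMP libraries were all below the epidermal 39.5, and the log2 fold change was 4.31 (SE 0.055). The noggin antagonist genes went opposite ways. The gene nog1 was higher, at 12.9 ± 2.45 in posterior neuronal cells and 7.10 ± 1.40 in NMP cells (log2 fold change 0.73). The gene nog2 was lower, at 3.78 ± 1.205 in posterior neuronal cells and 8.91 ± 2.18 in NMP cells (log2 fold change -1.30). The ligand bmp4 was at 6.93 ± 1.02 in posterior neuronal cells and 20.2 ± 5.32 in NMP cells. The forkhead gene foxd3 also fell, to 54.0 ± 8.62 in posterior neuronal cells, against 278 ± 9.40 in NMP cells. It is known best from neural crest, but of the 13 crest markers sox10 had only 1 UMI in each class, and 1 of the 6 tested was higher and 1, foxd3 itself, lower.

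Wnt genes changed both ways. Of 19 tested, 7 were higher and 9 lower in posterior neuronal cells, with a median log2 fold change of -0.02. The ligand wnt8a, which upholds the tailbud progenitors, had 11.6, 6.41, 10.4 and 5.82 CPM in posterior neuronal cells against 34.4, 32.4, 36.9 and 33.0 in NMP cells. All libraries had the same direction, without overlap (log2 fold change -2.02, SE 0.14, adjusted p = 1.01e-47 by edgeR), and with its copy wnt8a.1 added the sums were 55.0 ± 9.87 in posterior neuronal cells and 113 ± 10.2 in NMP cells. The ligand wnt11 fell to 7.29 ± 2.55 in posterior neuronal cells, against 65.3 ± 7.07 in NMP cells, and lef1, a transcription factor of the pathway, to 18.2 ± 1.59 in posterior neuronal cells against 53.5 ± 5.35 in NMP cells. The receptor gene fzd7a and the secreted antagonist sfrp1a were higher, with log2 fold changes of 1.33 (SE 0.087) and 3.09 (SE 0.18). No UMI of wnt3 was found in 3478 posterior neuronal or 2790 NMP cells, which allows a share of cells with a UMI of up to 0.0863% and 0.108%.

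FGF ligands fell, with an exception. The ligand fgf8a had 463, 405, 533 and 510.1 CPM in posterior neuronal cells against 499, 507, 562 and 563 in NMP cells. Its ranges overlapped, and the call at a log2 fold change of -0.18 (SE 0.030) was lost without the library block. Each class was far above the epidermal mean of 29.6. The ligand fgf3 was at 7.57 ± 2.11 in posterior neuronal cells and 45.3 ± 3.55 in NMP cells, fgf4 at 7.95 ± 1.78 in posterior neuronal cells and 30.5 ± 8.05 in NMP cells, fgf10a at 1.95 ± 0.668 in posterior neuronal cells and 12.9 ± 1.80 in NMP cells, and fgf17 at 18.4 ± 3.16 in posterior neuronal cells and 55.1 ± 3.89 in NMP cells. Their log2 fold changes were -2.64 (SE 0.13), -1.94 (SE 0.14), -2.68 (SE 0.24) and -1.60 (SE 0.10), and the posterior neuronal mean of fgf10a was close to the epidermal 1.83. Targets and feedback genes of the pathway went both ways. The ETS factor genes etv4, at 85.8 ± 11.04 in posterior neuronal cells and 53.3 ± 4.48 in NMP cells, and etv5a were higher with log2 fold changes of 0.66 and 0.49, and the feedback inhibitor gene spry2 with one of 0.40. The inhibitor genes il17rd and spry4 were lower, at -0.60 (SE 0.055) and -0.30. Over the list 5 of 20 tested genes were higher and 9 lower, with a median of 0.02.

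In the retinoic acid pathway, the degrading enzyme gene cyp26a1 had 42.2, 40.4, 54.5 and 37.0 CPM in posterior neuronal cells against 289, 347, 275 and 279.6 in NMP cells. Its classes did not overlap (log2 fold change -2.79, SE 0.056), and the posterior neuronal mean of 43.5 was that of epidermis 1 cells (43.9). The reductase gene dhrs3b, which turns retinaldehyde back to retinol, fell with it, to 22.1 ± 3.95 in posterior neuronal cells, against 131 ± 16.6 in NMP cells. The synthesising enzyme gene aldh1a2 was at 8.50 ± 1.71 in posterior neuronal cells and 6.85 ± 1.46 in NMP cells, and was not called (edgeR adjusted p = 0.429). The posterior neuronal mean was near the 8.31 of epidermis 1 cells and the NMP mean below it. The binding protein gene crabp2a rose to 175 ± 14.7 in posterior neuronal cells, against 69.9 ± 7.90 in NMP cells, though epidermis 1 cells had 219. Of the receptors, raraa was higher by a log2 fold change of 0.43 (SE 0.039) and rarga lower (log2 fold change -0.91, SE 0.083). Of 12 genes tested, 5 were higher and 4 lower.

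Most anterior and trunk Hox genes were higher. Of 24 Hox genes of groups 1 to 9 tested, 19 were higher in posterior neuronal cells and none lower, with a median log2 fold change of 0.39, and 22 were higher in all 4 libraries, where 37.0% of all genes kept 1 direction throughout. The log2 fold changes of this list ran from 0.02 to 1.70, the highest being that of hoxb8b, at 5.03 ± 1.31 in posterior neuronal cells and 1.55 ± 0.587 in NMP cells. The gene hoxb1b was at 64.0 ± 4.90 in posterior neuronal cells and 49.6 ± 5.05 in NMP cells (log2 fold change 0.36, SE 0.077, lost with DESeq2), hoxc6b at 239 ± 18.7 in posterior neuronal cells and 160.4 ± 7.94 in NMP cells, and hoxb6a at 60.9 ± 8.66 in posterior neuronal cells and 23.2 ± 3.12 in NMP cells. Epidermis 1 cells had 26.5, 208 and 59.2 of these 3 genes. Of 12 genes of groups 10 to 13, 6 were higher and 4 lower. The 2 group 13 genes tested went opposite ways. The gene hoxa13b had 13.9, 16.4, 13.8 and 11.3 CPM in posterior neuronal cells against 114, 149, 104 and 111 in NMP cells, a log2 fold change of -3.11 (SE 0.088) with no overlap. By contrast hoxd13a was at 16.5 ± 2.199 in posterior neuronal cells and 8.04 ± 1.22 in NMP cells, higher by a log2 fold change of 1.04 (SE 0.16). Of the caudal genes that sit above Hox, cdx1a fell to 83.4 ± 11.2 in posterior neuronal cells, against 285 ± 24.1 in NMP cells, while cdx4 was at 2895 ± 173 in posterior neuronal cells and 2694 ± 218 in NMP cells, a log2 fold change of 0.09 that was not called without the library block, and epidermis 1 cells had 2403. The TGF-beta family ligand gdf11, which sets posterior Hox onset in mouse, was at 9.03 ± 1.58 in posterior neuronal cells and 25.6 ± 1.75 in NMP cells.

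Beside the genes of the lists, the 10 higher and 10 lower genes of largest fold with a mean of at least 20 CPM held several not described so far. The homeobox gene gbx1 had 144, 144, 129 and 133 CPM in posterior neuronal cells against 2.32, 5.68, 4.73 and 6.80 in NMP cells, and prdm8, a zinc-finger gene of neural tissue, 73.5, 83.9, 77.7 and 67.5 in posterior neuronal cells against 2.32, 1.98, 2.84 and 2.43 in NMP cells. Both were free of overlap, with log2 fold changes of 4.81 (SE 0.11) and 4.97 (SE 0.15). The forkhead gene foxb1b was at 134 ± 23.4 in posterior neuronal cells and 8.54 ± 3.08 in NMP cells, and foxj1a, the master gene of motile cilia, at 53.2 ± 1.23 in posterior neuronal cells and 2.80 ± 0.831 in NMP cells. The gene si:dkeyp-110a12.4 was higher by a log2 fold change of 3.92 (SE 0.17) and zgc:100951 was lower (log2 fold change -3.96, SE 0.13). The cyclin gene ccnd2a, of the cell cycle exit list, was at 75.3 ± 7.29 in posterior neuronal cells and 5.30 ± 1.06 in NMP cells. The notochord homeobox gene noto was higher as well, at 123, 117, 128 and 119 in posterior neuronal cells against 27.1, 23.5, 31.0 and 40.3 in NMP cells with no overlap, although the other 5 tested notochord markers were not called and col9a1a was at 0 in both classes.

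Many of the low levels were no higher than in epidermis 1 cells. That class was shallower, with a median of 3082 UMIs per cell against 3968 in posterior neuronal and 4379 in NMP cells. Whether epidermis 1 cells express each gene was not tested, so their level is a reference and not a measured floor. Among the 155 genes gained with a log2 fold change of at least 1 and a mean of 20 CPM, the NMP level was at or below that of epidermis 1 cells in 68 (43.9%) and within 1.5 times of it in 91 (58.7%). Among the 95 genes lost at the same size, the posterior neuronal level was at or below the epidermal one in 44 (46.3%) and within 1.5 times in 67 (70.5%). The same shares over all genes were not counted, and these genes were picked as low in the class compared. The shares are therefore not read as a trait of gained or lost genes. For genes at or below the epidermal level, low expression was not told from free RNA, and the fold is not to be read as a ratio of expression in the 2 classes. Genes between that level and 1.5 times of it lie above the reference, and nothing is read on whether they are expressed. Genes with a known epidermal role, such as msx3, cannot be set against this reference. Markers of other cell types were read as whole lists. The 14 epidermal genes tested gave 5 higher and 1 lower with a median of 0.12, and the list summed to 553 to 1590.0 CPM in posterior neuronal cells, 504 to 1429 in NMP cells and 10266 to 16466 in epidermis 1 cells. Of 6 notochord markers noto was higher, by a log2 fold change of 2.04, and the sum was 159.6 to 183 in posterior neuronal cells against 58.3 to 93.2 in NMP cells. Of 6 neural crest markers pax3a was higher and foxd3 lower (log2 fold changes 1.32 and -2.37), and the sum was 122 to 162 in posterior neuronal cells against 330.2 to 343 in NMP cells. Of 8 somite and muscle markers 2 were higher and 2 lower, with sums of 396 to 547 in posterior neuronal cells and 421 to 538 in NMP cells. None of 6 blood and endothelium markers was called, with sums of 94.6 to 130.2 in posterior neuronal cells and 82.0 to 114 in NMP cells. Their part in the differences above was not tested.

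**Figure D5:**
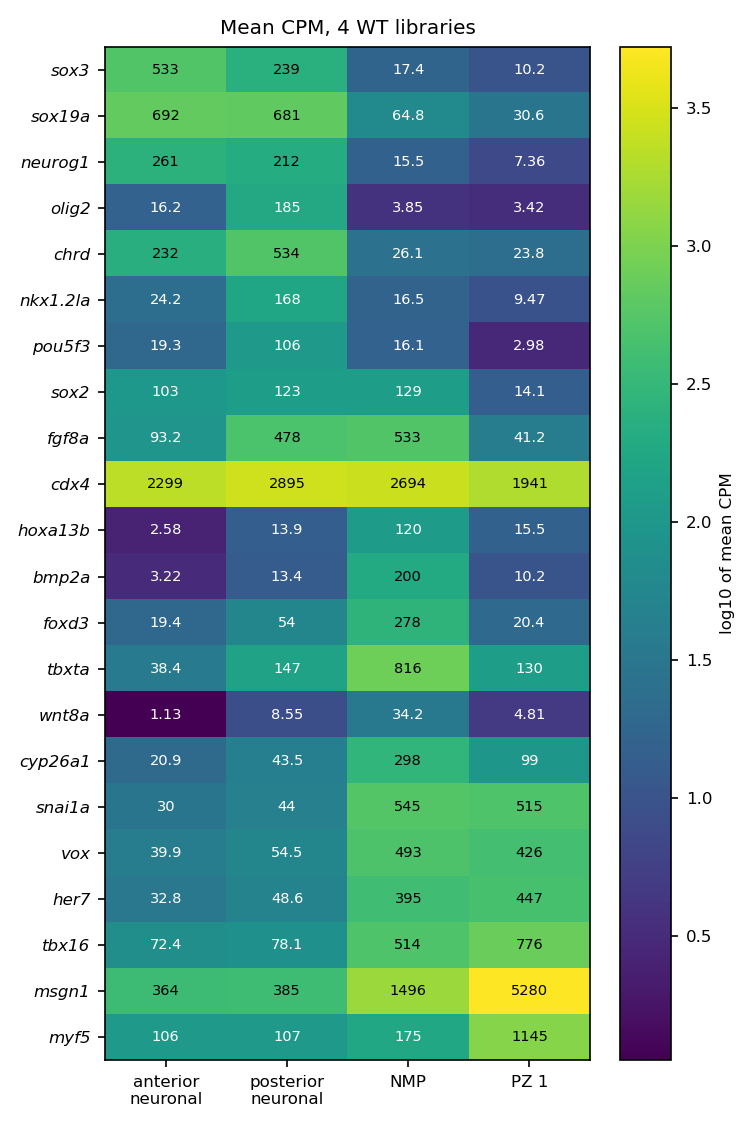
Mean CPM over 4 WT libraries of 22 genes in anterior neuronal, posterior neuronal, NMP and PZ 1 cells, coloured on a log10 scale. Levels of sox3 are 533, 239, 17.4 and 10.2 and those of msgn1 364, 385, 1496 and 5280 in that order, while hoxa13b, bmp2a, foxd3, tbxta and wnt8a are highest in NMP cells.

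Anterior neuronal cells and PZ 1 cells were set beside the pair as a description. The name of the anterior neuronal class gives a position and not a stage of the neural path. The labels do not spell out the abbreviation PZ 1, a class that held a mean of 5279.8 CPM of msgn1. Of the 155 gained genes, 58 were higher still in anterior neuronal than in posterior neuronal cells in all 4 libraries and 71 were lower. The level of sox3 was 533 in anterior neuronal cells against 239 in posterior neuronal cells. Other gained genes were lower again, with olig2 at 16.2, chrd at 232, nkx1.2la at 24.2 and pou5f3 at 19.3 in anterior neuronal cells, against 185, 534, 168 and 106 in posterior neuronal cells. Among the 95 lost genes, 56 were lower in anterior neuronal than in posterior neuronal cells throughout and 5 were higher. On the mesodermal side, 62 of the 95 were lower in PZ 1 than in NMP cells in all 4 libraries and 22 were higher. In PZ 1 cells snai1a was at 515, her7 at 447 and tbx16 at 776, against 545 ± 20.9, 395 ± 108 and 514 ± 38.9 in NMP cells. In contrast PZ 1 cells had 15.5 of hoxa13b, 10.2 of bmp2a and 20.4 of foxd3, against 119.5 ± 19.9, 199.8 ± 11.2 and 278 ± 9.40 in NMP cells. The 95 genes were chosen as high in NMP cells and the 155 as high in posterior neuronal cells, which by itself favours a lower level in PZ 1 cells for the 95 and in anterior neuronal cells for the 155, so nothing is read from these counts. Among all 3982 genes of that level, 39.3% were lower and 19.4% higher in PZ 1 than in NMP cells, and 23.6% lower and 12.8% higher in anterior neuronal than in posterior neuronal cells.

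The same class difference was then measured in the 12 libraries of treated embryos, which the WT comparison does not use, in 1 fit over all 16 libraries and 11164 genes. There were 3418 posterior neuronal and 2543 NMP cells in DMH1, 3420 and 3469 in SU5402, and 4346 and 2516 in notum-1. In DMH1 3616 genes were called (32.4%). SU5402 gave 2926 calls (26.2%) and notum-1 gave 2943 (26.4%). Of the 522 genes gained in WT, 506, 495 and 484 were called higher in DMH1, SU5402 and notum-1, and 2, 1 and 1 were called lower. Of the 212 genes lost in WT, 201, 201 and 202 were called lower and none was called higher. Per the file headers a single set of clusters from an integrated neighbour graph spans the cells of all treatments; where the class names rest on it, a like difference between the classes was bound to appear in part. DMH1 had a log2 fold change of tbxta of -2.78, SU5402 one of -2.42 and notum-1 one of -3.31, beside -2.48 in WT, that of sox3 4.72, 4.92 and 4.24 beside 3.84, and that of sox2 0.33, -0.08 and -0.06 beside -0.08.

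By the interaction term of that fit, DMH1 had 227 genes whose class difference departed from WT (2.03%), SU5402 had 118 (1.06%) and notum-1 had 235 (2.10%), at an edgeR adjusted p under 0.05. Departures were more frequent among genes gained or lost in WT. Of the 522 gained genes, 70, 30 and 54 departed in DMH1, SU5402 and notum-1, and of the 212 lost genes 25, 11 and 28. These genes were chosen by WT values that also enter the interaction term, so nothing more is read from these counts. Without library SU4 the number for SU5402 was 71, and without library WNT_DJ2 that for notum-1 was 135. In notum-1, the drop of tbxta was larger than in WT (difference of the log2 fold changes -0.84, edgeR adjusted p = 0.017), and hoxd13a, higher in posterior neuronal cells of WT, had a log2 fold change of -0.34 (difference -1.38, edgeR adjusted p = 2.57e-05). In DMH1, pax6b had a log2 fold change of 6.40 beside 3.90 in WT, nkx6.1 4.66 beside 3.34 and irx3a 3.61 beside 0.95. The loss of hoxa13b was smaller in both DMH1 (-2.06) and SU5402 (-1.90) than in WT (-3.11). Median depth of posterior neuronal cells ranged over libraries from 6950 to 7916.5 UMIs per cell in DMH1, from 2358 to 8491.5 in SU5402, from 3909 to 9482 in notum-1 and from 3225 to 5464.5 in WT, and its part in these differences was not tested.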

How the data were processed

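The authors deposited raw UMI counts of 21301 genes in 130661 cells that they had already filtered, with a table of each cell's library, treatment, totals, mitochondrial percent and class, 25 classes in all. Per the submitters' processing notes, Cell Ranger and the build GRCz11 were used, with no version named. The deposited mitochondrial percent of each cell served only to describe the authors' filter: its highest value in a WT library was 4.53 to 5.00, and cells held 801 to 2789 genes. No cell was removed, no doublet caller was run, and the class names were used as given. Groups were taken from the treatment named for each cell, WNT being read as notum-1, since 12 of the 16 library names match a group of 4 but no single labelled sample. CPM were computed from the deposited counts without TMM scaling.

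Counts were summed per library and class and tested with edgeR 4.0.16 (R 4.3.3), by its robust quasi-likelihood F test after filterByExpr and TMM scaling, with library and class in the model. Both sums of a library share its pool of tails, which is where the pairing comes from; deviations from the class means correlated at 0.337 to 0.677 within a library and at -0.460 to 0.118 between libraries. The values between libraries were above 0 for DJ1 with DJ2 and MG1 with MG2 and below 0 for each DJ with MG pair, so that the names form 2 sets, whose meaning the labels do not give; each difference was taken within a library. An adjusted p that came out as 0 is not printed. In simulated counts for this comparison (8911 genes), 100% of 200 genes changed by a log2 fold of 1 or 2 were recovered and 0.115% of unchanged genes were called. Both classes of a library were given the same simulated library effect, and no smaller change was simulated. The run therefore checked the code and gives no error rate for the calls.

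The treated libraries were tested in a 16-library fit with the class effect per treatment and its difference from WT. Shares of cells are means over libraries, with each cell thinned to 2000 UMIs. Alternatives were DESeq2 1.42.0, limma 3.58.1 (voom, added after seeing the data), no library block, no TMM, no filter, thinned sums or cells, and each library left out. Named genes are 41 core genes, up to 4 further genes of smallest adjusted p per list, and the 10 higher and 10 lower genes of largest fold with a mean of at least 20 CPM. Further list members (nog1, nog2, hey2, etv5a, spry2, spry4, hoxb8b and others) were named after their values were seen. Genes, the 26 lists and the pair of classes were chosen with earlier results of these data known. Intervals and zero-count limits cover counting error only. Plots used matplotlib 3.10.9.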

Additional observations from a re-analysis of the deposited data

Results flagged for a closer look

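Among 82 groups of 4 library values of the core genes, 6 held a library far from the other 3, where chance alone gives about 5% of groups. In posterior neuronal cells these were library DJ2 for tbxtb (0.200 CPM, a single UMI beside 0 in the others), cdx1a (66.7, below the others) and cdx4 (3152, above them), library DJ1 for dla (214, above) and library MG2 for cdh6 (78.8, below). In NMP cells it was library MG1 for snai1a (514, below). The libraries of the classes overlapped for cdx4, but without library DJ2 they did not, at 2786 to 2844 in posterior neuronal cells and 2513 to 2712 in NMP cells. For the other genes they did not overlap.

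In the 16-library fit, 14 of the 40 core genes departed from WT in at least 1 treatment by the interaction term. There were 19 departures in all, each in the class difference (posterior neuronal over NMP). Of all 11164 genes, 2.03% departed for DMH1, 1.06% for SU5402 and 2.1% for notum-1. The share of all genes departing in at least 1 treatment was not counted, so nothing is read from the 14. In DMH1 the log2 fold change was higher than in WT by 1.06 for hoxa13b, 2.40 for elavl3, 2.49 for pax6b, 1.32 for nkx6.1 and 2.66 for irx3a, and the difference from WT was -0.60 for dlc, -1.27 for her1, -1.11 for her4.1 and -0.99 for fn1b. In SU5402 it was higher by 1.21 for hoxa13b. In notum-1 the difference from WT was -0.84 for tbxta, -1.38 for hoxd13a, -1.003 for dlc, -1.68 for her1, -0.56 for hes6, -0.33 for cdh6 and -1.24 for fn1b, and it was 0.52 for hoxb1b and 1.59 for irx3a.

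The sign of the class difference itself turned round for her4.1, which was lower in posterior neuronal cells of DMH1 (-0.57) beside higher in WT (0.54), where both were called. Reads can be split among the near-identical her4 copies, which were summed in WT only. Whether their sum turned round in DMH1 was not tested. For hoxd13a the value was -0.34 in notum-1, itself not called (edgeR adjusted p = 0.0855), beside 1.04 in WT. The elavl3 difference in DMH1 stood at an edgeR adjusted p of 0.0498 and that of cdh6 in notum-1 at 0.045, both close to the threshold.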

How the results depend on the processing

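Without the replicate block of libraries 1396 genes were called, with DESeq2 1094 and with cells thinned to 2000 UMIs 1357, beside 2280 in the fit reported. Of these, 664 (DESeq2) and 750 (thinned cells) were higher in posterior neuronal cells, beside 1285, and 504 (no block), 430 (DESeq2) and 607 (thinned cells) were lower, beside 995. DESeq2 gave wider SEs and thinning left 6749 genes to test; for the fit without the block the cause was not tested. All calls without the block and with DESeq2, and 1278 of those with thinned cells, were among the 2280. limma voom (2261, added after seeing the data), no TMM (2230), no filter (2376) and thinned sums (2175) stayed within 1.5 times. Leaving out 1 library at a time gave 1852 to 2071 calls, 1054 to 1182 higher and 798 to 889 lower. For DMH1 it gave 2953 to 3317 calls and 168 to 192 departures from WT, for SU5402 2119 to 2815 and 71 to 133, and for notum-1 2269 to 2625 and 135 to 193.

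In cells as deposited, a UMI of tbxta was found in 33.9% of posterior neuronal and 87.7% of NMP cells, of sox2 in 38.7% of posterior neuronal and 35.0% of NMP cells, and of both in 15.6% of posterior neuronal and 33.2% of NMP cells. Of 140 genes named and tested, 116 kept direction and call in each alternative run. The uncalled aldh1a2 turned to -0.17 with thinned cells (edgeR adjusted p = 0.774), beside 0.24; the other changes were lost calls. For genes at or below the epidermis 1 level, low expression was not told from free RNA, and a fold is not to be read as a ratio of expression.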

Other observations

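Genes of the S, G2 and M phases differed little between the classes. Of 23 S phase genes tested none was called higher and 3 were lower in posterior neuronal cells, with a median log2 fold change of -0.04, and of 24 G2 and M phase genes none was higher and 8 were lower, with a median of -0.12, beside 14.4% higher and 11.1% lower among all genes. The replication licensing gene cdc6 was at 63.4 ± 5.27 CPM in posterior neuronal cells and 81.5 ± 9.19 in NMP cells (SD, n = 4; log2 fold change -0.39, edgeR adjusted p = 1.13e-07), and ube2c, which drives exit from mitosis, at 310 ± 15.6 in posterior neuronal cells and 367 ± 8.72 in NMP cells (-0.26, edgeR adjusted p = 4.44e-12). Of 12 genes of the cell cycle exit list, 3 were higher and 1 lower. The largest rise was that of the cyclin gene ccnd2a (3.89), so the 3 are not all inhibitors of the cycle. The CDK inhibitor gene cdkn1ca was at 211 ± 21.6 in posterior neuronal cells and 90.8 ± 11.4 in NMP cells (1.21), and the antiproliferative gene btg2 at 194 ± 8.67 in posterior neuronal cells and 108 ± 9.80 in NMP cells (0.84).

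Glycolysis genes went both ways, 4 of 13 higher and 4 lower beside 14.4% and 11.1% of all genes, with a median of 0.24. The aldolase gene aldoaa was at 652 ± 64.6 in posterior neuronal cells and 761 ± 53.0 in NMP cells (-0.24), and pfkfb4b at 95.5 ± 12.4 in posterior neuronal cells and 73.0 ± 8.90 in NMP cells (0.37). Of 14 genes of neural epithelium 4 were higher and 5 lower beside the same shares of all genes, with a median of 0.18. The RNA-binding protein gene msi1 was at 105 ± 12.9 in posterior neuronal cells and 19.2 ± 4.71 in NMP cells (2.48), whereas hmgb3a was at 571 ± 45.3 in posterior neuronal cells and 712 ± 22.3 in NMP cells (-0.33). Of 17 stress and immediate early genes, 3 were higher and 1 lower, near the 14.4% and 11.1% of all genes, with a median of 0.00. The chaperone gene hspa5 was at 73.4 ± 21.0 in posterior neuronal cells and 102 ± 24.7 in NMP cells (-0.47), lower in posterior neuronal cells of each library although the ranges overlapped.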
